A study of Mus musculus with 22 samples.

Results

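The genes described here encode the protein subunits of the respiratory chain and of ATP synthase, split by the genome that carries them. They were chosen by name alone, as protein-coding genes with the symbols of subunits, and complexes were assigned by name as well. The names also took in Ndufa4l2, Cox7a2l and Atp5s, which are counted as members but are not established subunits. For complex I these were Nduf followed by a letter a, b, c, s or v and a number, and Ndufab1, for complex II Sdha to Sdhd, for complex III Cyc1 and symbols that start with Uqcr, for complex IV those that start with Cox4 to Cox8, and for complex V Usmg5 and those that start with Atp5. The mitochondrial genes were those that start with mt-Nd, mt-Cytb, mt-Co or mt-Atp. This gave 99 of the 29367 genes in the table. The nucleus encodes 86 of them, with 38 in complex I, 4 in II, 9 in III, 17 in IV and 18 in V. The mitochondrial genome encodes the other 13, with 7 in complex I, 1 in III, 3 in IV and 2 in V. A further 10 genes that matched the names but are not protein-coding, 9 of them processed pseudogenes, were left out and held at most 0.00565% of the counts of any library.

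The respiratory chain moves electrons from NADH and succinate to oxygen and pumps protons across the inner mitochondrial membrane, and ATP synthase uses that proton gradient to make ATP. Most subunits are encoded in the nucleus, translated on cytosolic ribosomes and imported, whereas a small hydrophobic core is encoded in mitochondrial DNA and translated inside the organelle on mitochondrial ribosomes. Complex II alone has no mitochondrially encoded subunit. Astrocytes of the optic nerve surround the axons of retinal ganglion cells, and in the unmyelinated optic nerve head those axons are known for a high density of mitochondria.

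The study asked how the transcripts bound to astrocyte ribosomes differ with time and place after the intraocular pressure (IOP) of a mouse eye was raised by occluding its drainage with injected microbeads. RNA was taken from the optic nerve head (ONH), the unmyelinated stretch just behind the eye, and from the optic nerve proper (ONP), here its most proximal myelinated stretch. Tissue was collected 7 or 30 days after the injection, which gave 4 groups, namely ONH at 30 days (7 libraries), ONH at 7 days (4), ONP at 30 days (7) and ONP at 7 days (4). Uninjured tissue was not analysed here, so every change over time below is between 2 times after injury.

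All groups shared 1 genotype. The mice, aged 3 to 4 months and on a C57Bl/6 background, came from crossing B6J.129(Cg)-Rpl22tm1.1Psam/SjJ with the transgenic B6.Cg-Tg (GFAP-Cre), line 73.12Mvs/J, and the animals used were Rpl22 HA/HA and Cre+, with the genotype label WT. In this RiboTag design Cre exchanges the last exon of the ribosomal protein gene Rpl22 for a copy with a haemagglutinin (HA) tag, and tagged ribosomes are pulled down with an antibody to HA. The tag depends on the GFAP promoter that drives Cre, so it marks cells in which that promoter is or was active. Each library pooled tissue of 4 mice, 2 male and 2 female, and ONH and ONP tissue came from the same mice. At 30 days a shared replicate number was taken to mark an ONH and an ONP library of the same mice. The columns of the 7 day libraries carry the numbers 1, 3, 5 and 6 in the ONH and 1, 2, 5 and 6 in the ONP, which are used here as names, except in 1 fit at 7 days that takes the 3 shared numbers as a block. As background, cytosolic ribosomes carry Rpl22 and mitochondrial ribosomes do not, so a mitochondrially encoded transcript is not translated by a tagged ribosome.

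Depth ran from 16292489 to 33307092 counts per library. At this depth the smallest amount taken as detectable, 3 counts, was 0.0897 to 0.191 CPM (counts in every 1000000). All but 5 of the 99 members were above that floor in all 22 libraries. The exceptions were Cox7b2, above it in 1 library, Cox6a2 in 13, Cox8b in 16, Ndufa4l2 in 18 and mt-Nd3 in 21.

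Markers of astrocytes were present in every library. All 8 astrocyte markers had counts in all 22 libraries and their summed level was 12534 to 30144 CPM, with Gfap the most abundant. Markers of oligodendrocytes, the myelin-forming cells, were abundant as well. Their summed level was 79836 to 104696 CPM in the ONP at 7 days, 24886 to 81736 in the ONP at 30 days, 18224 to 35063 in the ONH at 7 days and 13151 to 40233 in the ONH at 30 days, with Mbp the most abundant. Photoreceptor markers summed to 1966 CPM in ONH 30 days replicate 4, to 1247 in ONH 7 days library 5 and to 5321 in ONH 7 days library 6, against 83.7 to 391 in the other ONH libraries and 2.40 to 122 in the ONP. Of that list Rcvrn had no count in 5 libraries. These 3 ONH libraries stood apart from the rest, and the counts and medians of members in the comparisons they enter are given with and without them.

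Per kilobase of transcript, the members spanned several orders of magnitude. The median level over the 22 libraries was 104 CPM per kb for the nuclear members and 168 for the mitochondrially encoded ones. The most abundant per kb was Cox4i1, the general form of the subunit that regulates cytochrome c oxidase, at 719 CPM per kb. It was followed by mt-Co1, the catalytic subunit of complex IV, at 558, by Atp5b, the catalytic beta subunit of ATP synthase, at 501, and by mt-Co3 at 481.0. By complex, the nuclear medians were 101 CPM per kb for complex I, 176 for II, 108 for III, 73.1 for IV and 120.2 for V. The mitochondrially encoded medians were 61.2 for complex I, 481.0 for IV and 176 for V, and mt-Cytb, the single complex III subunit of that genome, was at 237. The lowest nuclear members were isoforms named for other tissues or states, among them Cox7b2 at 0.0764, Ndufa4l2 at 1.13, Cox6a2 at 1.27 and Cox8b at 1.74 CPM per kb.

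Promoters of the nuclear members were read to show sequence features that the choice by name did not use. Promoters for 70 of the 86 nuclear members could be matched in the RefSeq table (build GRCm38.p6), which gives 250 bases before to 50 bases after each start. Nuclear respiratory factor 1 (NRF1), ETS factors such as GABP, and YY1 are the factors classically linked to nuclear genes of the respiratory chain. On either strand, the letters CGCATGCG, from the middle of the NRF1 motif, were in 9 of the 70 members (12.9%), against 2.07% of all 27025 genes with a promoter of that length in the table, a gene being counted where any of its promoters held the letters. The ETS letters CCGGAAG were in 17 (24.3%, against 9.93%), and the YY1 letters AAGATGGCG in 7 (10%, against 1.64%). Any of the 3 was in 27 (38.6%, against 12.8%). A match is a description of letters and not a bound site. The 3 promoters printed are those of Atp5e, Ndufa11 and Ndufa8, small subunits that return in the comparisons below, each 5′ to 3′ in the direction of transcription with the matched letters in capitals. That of Atp5e (epsilon subunit of ATP synthase) is chr2:174464052-174464351 on the minus strand, with the ETS letters on the opposite strand 102 bases before the start. That of Ndufa11 (a membrane-arm subunit of complex I) is chr17:56717512-56717811 on the plus strand, with the NRF1 letters 59 bases before the start. That of Ndufa8 (a complex I subunit of the intermembrane space) is chr2:36049289-36049588 on the minus strand, with the NRF1 letters 9 bases before the start.
Atp5e: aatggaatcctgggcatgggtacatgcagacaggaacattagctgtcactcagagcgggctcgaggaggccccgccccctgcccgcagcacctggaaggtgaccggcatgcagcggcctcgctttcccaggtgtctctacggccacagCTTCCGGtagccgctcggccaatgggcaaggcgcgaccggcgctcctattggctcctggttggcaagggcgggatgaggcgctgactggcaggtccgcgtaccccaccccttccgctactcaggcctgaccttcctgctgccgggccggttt
Ndufa11: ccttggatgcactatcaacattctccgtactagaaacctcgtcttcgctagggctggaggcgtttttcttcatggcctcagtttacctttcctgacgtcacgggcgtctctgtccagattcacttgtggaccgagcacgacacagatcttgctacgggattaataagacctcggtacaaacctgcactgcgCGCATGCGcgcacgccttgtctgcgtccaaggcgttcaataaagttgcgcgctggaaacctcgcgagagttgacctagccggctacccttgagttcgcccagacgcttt
Ndufa8: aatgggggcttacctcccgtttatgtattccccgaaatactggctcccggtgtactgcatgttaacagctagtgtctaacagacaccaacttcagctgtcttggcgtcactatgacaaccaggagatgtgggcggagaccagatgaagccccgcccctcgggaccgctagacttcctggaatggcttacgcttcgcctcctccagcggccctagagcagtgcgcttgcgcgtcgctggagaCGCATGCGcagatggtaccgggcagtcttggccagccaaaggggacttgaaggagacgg

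The summed share of the library showed how much of the pulled-down RNA came from each genome's subunits. Nuclear members took 0.812% ± 0.0289 of counts in the ONP at 7 days (SD, n = 4) and 1.02% ± 0.110 in the ONP at 30 days (n = 7), and every 30 day ONP library lay above every 7 day one. In the ONH they took 1.07% ± 0.221 at 7 days (n = 4) and 1.28% ± 0.167 at 30 days (n = 7), and these ranges overlapped. Mitochondrially encoded members took 0.230% ± 0.0361 in the ONP at 7 days and 0.176% ± 0.0717 at 30 days, and 0.291% ± 0.0916 in the ONH at 7 days and 0.323% ± 0.0725 at 30 days. Both pairs overlapped. The ratio of mitochondrially to nuclear encoded counts was 0.283 ± 0.0397 in the ONP at 7 days and 0.168 ± 0.0543 at 30 days, and 6 of the 7 libraries at 30 days lay below all 4 at 7 days. In the ONH that ratio was 0.285 at 7 days, where single libraries ran from 0.186 to 0.448, and 0.253 at 30 days. No test was made of these sums. Atp5b held 8.93% of the nuclear sum and mt-Co1 held 34.2% of the mitochondrial sum.

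**Figure D1:**
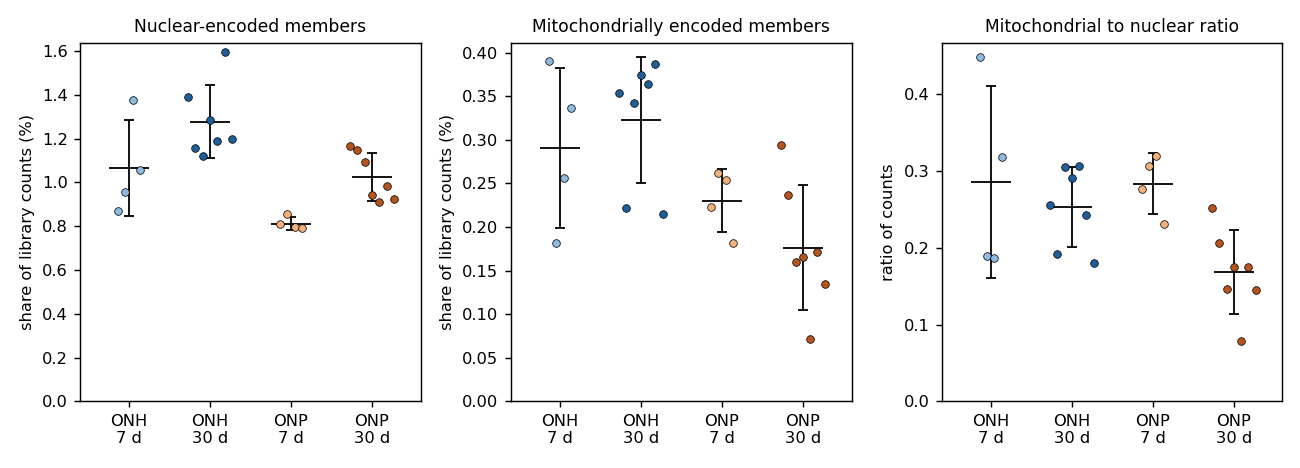
Share of library counts (percent) taken by the 86 nuclear members and by the 13 mitochondrially encoded members, and the ratio of the latter to the former, in each group (x axis). Points are libraries, long bars the mean and error bars the SD (n = 4 at 7 days, n = 7 at 30 days). The nuclear share of every ONP library at 30 days lies above those at 7 days, while 6 of 7 ratios lie below them.

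In the ONP, nuclear-encoded subunits were higher at 30 than at 7 days and mitochondrially encoded subunits had log2 fold changes below 0. Among the 82 nuclear members tested, 34 rose and 2 fell (edgeR's quasi-likelihood test, adjusted p under 0.05), when 7.82% of all 15491 genes tested rose and 9.21% fell. Their median log2 fold change (log2FC) was 0.39, against -0.01 over all genes, and 75 were above 0 and 7 below. Of the 13 mitochondrially encoded members 1 fell and none rose, all 13 had a log2FC below 0, and their median was -0.42. In bulk RNA of this kind, fewer cells of a type and less RNA per cell cannot be told apart. The nuclear count depended on the fit. With offsets for length and GC content 3 rose and 3 fell (median 0.13), beside 5.14% and 7.93% of all genes tested. With all 4 groups in a single fit 8 rose (3.36% of all genes), and with library size scaling 52 rose (12.5%). It also moved with single libraries. Without ONP 30 days replicate 1, 2 or 3 it was 14, 18 or 17, when 5.49%, 6.01% or 5.68% of all genes rose. Without ONP 7 days library 1, 5 or 6 it was 12, 11 or 10 (6.89%, 6.41% or 4.33% of all genes). Without ONP 30 days replicate 5 it was 43 (10.9%). The members not tested for low counts were Ndufa4l2, Cox6a2, Cox8b and Cox7b2.

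The nuclear subunits called in the ONP came from every complex, and no test compared the complexes. In complex I 18 of 37 tested rose and 1 fell (median log2FC 0.38), in complex II 1 of 4 rose (0.25), in complex III 3 of 9 (0.35), in complex IV 6 of 14 rose and 1 fell (0.53), and in ATP synthase 6 of 18 rose (0.39). The 1 of complex II was Sdhb, a call that several settings ended, and with the offsets no member of complex II or IV rose. Ndufb10, an accessory subunit of the membrane arm of complex I, had the smallest adjusted p. It was at 77.5, 80.7, 76.1 and 60.96 CPM in the 7 day ONP libraries 1, 2, 5 and 6, and its 30 day libraries ran from 105 through a median of 118 to 145. All 7 later libraries lay above the 4 earlier ones (log2FC 0.70 ± 0.11 SE, adjusted p = 0.00257). Atp5o, the stalk subunit that confers oligomycin sensitivity, was at 134, 132, 130.3 and 119 CPM at 7 days and ran from 155 through a median of 205 to 212 at 30 days. Those ranges did not overlap either (log2FC 0.55 ± 0.10, adjusted p = 0.00496). Ndufb8, another membrane-arm subunit, rose by a log2FC of 0.50 ± 0.10 (adjusted p = 0.00590), and Cox7a2l, which helps to join complexes III and IV, by 0.48 ± 0.10 (adjusted p = 0.00825). Ndufa8, whose promoter is printed above, was at 83.5, 68.2, 70.7 and 78.2 CPM at 7 days and ran from 93.8 through a median of 98.4 to 109 at 30 days (log2FC 0.40 ± 0.08, adjusted p = 0.00865), with no overlap. Of these 5 genes only Ndufb10 kept its call with the offsets for length and GC content described below. Under them Atp5o was at 0.32 (adjusted p = 0.0872), Ndufb8 at 0.25 (adjusted p = 0.118), Cox7a2l at 0.24 (adjusted p = 0.174) and Ndufa8 at 0.18 (adjusted p = 0.212). With all 4 groups in a single fit Ndufb8 (adjusted p = 0.138) and Ndufa8 (adjusted p = 0.149) lost their calls as well.

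Cox5b, a core-associated subunit of cytochrome c oxidase, rose in the ONP with a wide spread. It was at 41.2, 46.8, 37.4 and 37.98 CPM in the ONP at 7 days and ran from 47.1 through a median of 97.2 to 168 at 30 days, with every later library higher but 3 of them close to the early ones (log2FC 1.08 ± 0.31, adjusted p = 0.0350). That call was lost without any 1 of 6 libraries, with the offsets for length and GC content (0.77, adjusted p = 0.102) and with voom (0.95, adjusted p = 0.0645). Sdhb, the iron-sulphur subunit of succinate dehydrogenase, moved little but evenly. Its 7 day ONP values were 201, 196, 181 and 194 CPM and its 30 day values ran from 228 through a median of 232 to 236 (log2FC 0.24 ± 0.07, adjusted p = 0.0271), and the call was lost without ONP 30 days replicate 1 or ONP 7 days library 2 or 5, with the offsets (0.097, adjusted p = 0.432), with all 4 groups in a single fit (adjusted p = 0.0951) and with a minimum of 1 count (adjusted p = 0.0511). Other subunits named for their complex did not pass the test, among them Cox4i1 (log2FC 0.25 ± 0.10, adjusted p = 0.111), the flavoprotein Sdha (0.21 ± 0.10, adjusted p = 0.189), the haem-bearing Cyc1 (0.17 ± 0.07, adjusted p = 0.120) and the Rieske protein Uqcrfs1 (0.23 ± 0.09, adjusted p = 0.0945). DESeq2 called Cyc1 (adjusted p = 0.0318) and Uqcrfs1 (0.0436). With library size scaling in edgeR Cox4i1 (adjusted p = 0.0367), Cyc1 (0.0240) and Uqcrfs1 (0.0247) passed. Usmg5, a small subunit that helps ATP synthase to form dimers, was at 0.88 ± 0.39 (adjusted p = 0.136). Uqcrc1, a large core subunit of complex III, was at -0.11 ± 0.08 (adjusted p = 0.366), and Ndufv1 and Atp5a1 were within 1 SE of 0.

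The 2 nuclear members that fell in the ONP were Cox4i2 and Ndufs1. Cox4i2, the alternative form of Cox4 known for its induction by low oxygen and its abundance in lung and in pericytes, was at 2.82, 4.65, 4.02 and 3.04 CPM at 7 days and ran from 1.43 through a median of 1.89 to 2.38 at 30 days. Every later library was lower (log2FC -0.96 ± 0.24, adjusted p = 0.0195). Ndufs1, the largest iron-sulphur subunit of complex I, was at 96.1, 108, 99.02 and 115 CPM at 7 days and ran from 77.5 through a median of 84.5 to 94.9 at 30 days, again without overlap (log2FC -0.32 ± 0.08, adjusted p = 0.0240). Without ONP 7 days library 2 the adjusted p rose to 0.0610 for Cox4i2 and 0.0636 for Ndufs1, and without ONP 7 days library 6 that of Ndufs1 was 0.106. With all 4 groups in a single fit it was 0.0539 for Cox4i2 and 0.242 for Ndufs1, with a minimum of 1 count 0.0634 and 0.0857, and with library size scaling 0.130 for Ndufs1. Mural cell markers stood beside Cox4i2. Their summed level was 101 to 228 CPM across the ONP libraries, Tagln was the most abundant, 2 of the 5 tested fell in the same comparison and Myh11 had no count in 5 of the 22 libraries. Their part in the result was not tested.

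mt-Co1 was the 1 mitochondrially encoded member that fell in the ONP. It was at 943, 876, 923 and 707 CPM in the 7 day libraries 1, 2, 5 and 6 and ran from 241 through a median of 522 to 837 at 30 days (log2FC -0.78 ± 0.25, adjusted p = 0.0497). The highest 30 day library lay within the 7 day range. This call was kept without ONP 30 days replicate 1 or 5 and lost without any 1 of the other 9 libraries, and 7 other settings also ended it (adjusted p = 0.0506 to 0.0943). The remaining complex IV subunits of this genome had values of -0.65 ± 0.31 for mt-Co2 (adjusted p = 0.165) and -0.62 ± 0.29 for mt-Co3 (adjusted p = 0.157). In complex I, mt-Nd1 was at 276, 337, 286 and 227 CPM at 7 days and ran from 83.1 through a median of 196 to 282 at 30 days, with overlapping ranges (log2FC -0.54 ± 0.24, adjusted p = 0.143). mt-Nd2 was at -0.45 ± 0.30 (adjusted p = 0.323) and mt-Nd4l at -0.42 ± 0.28 (adjusted p = 0.334). The other 7 did not pass either. With the offsets for length and GC content 6 passed and were lower at 30 days, namely mt-Atp8 (-0.87, adjusted p = 0.00364), mt-Co1 (-0.93, adjusted p = 0.0192), mt-Co2 (-0.997, adjusted p = 0.0186), mt-Co3 (-0.94, adjusted p = 0.0228), mt-Nd1 (-0.79, adjusted p = 0.0194) and mt-Nd4l (-0.97, adjusted p = 0.0123). ONP 30 days replicate 5 had the lowest mitochondrial share, 0.0711% of counts, and the highest summed oligodendrocyte level of the 30 day ONP libraries, 81736 CPM.

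**Figure D2:**
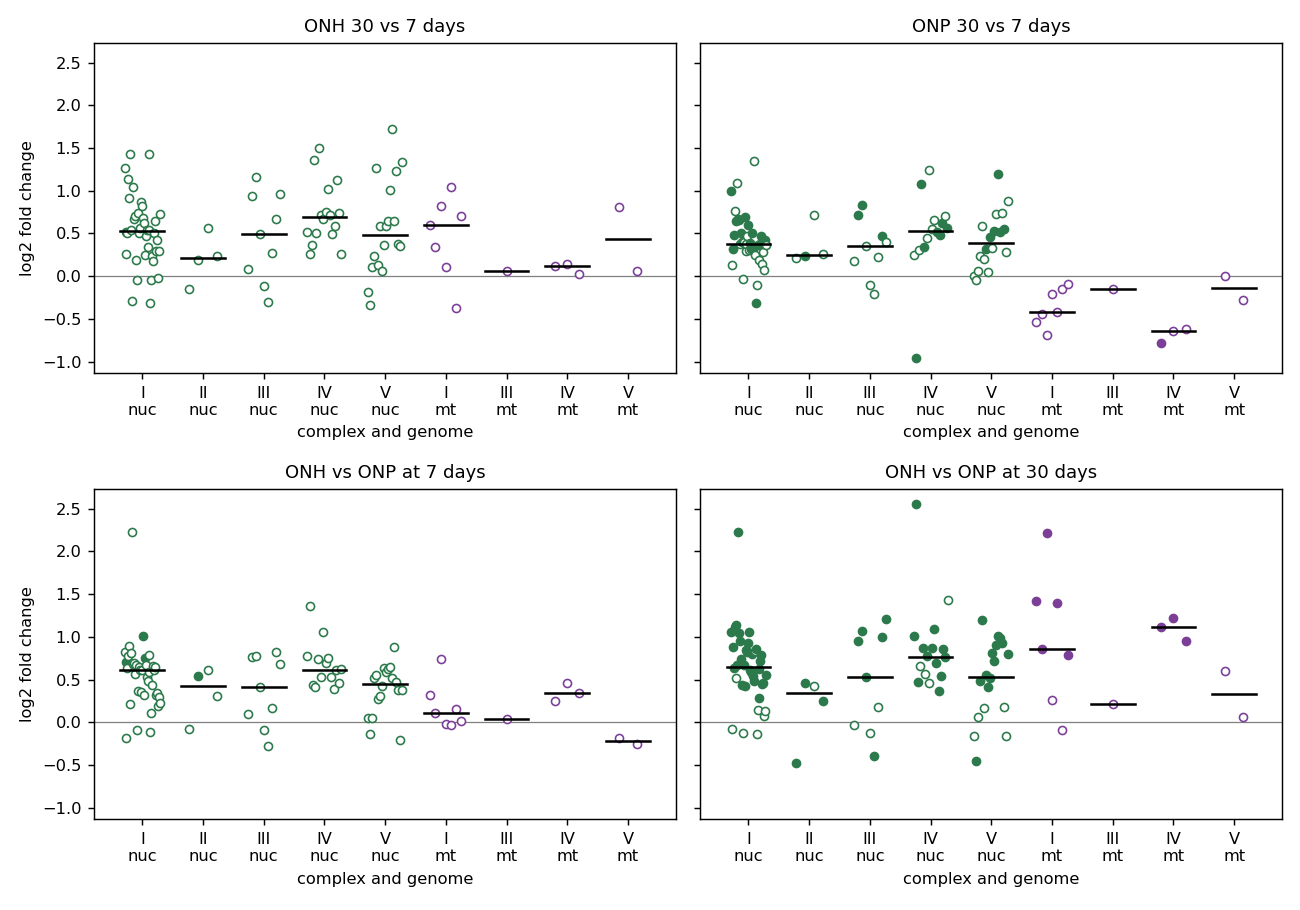
The log2FC of every member tested (y axis), by complex and by nuclear (nuc) or mitochondrial (mt) genome (x axis), in the 4 comparisons. Filled points passed an adjusted p of 0.05, open points did not, and bars are medians. In the ONP from 7 to 30 days the nuclear medians lie above 0 and the mitochondrial ones below it.

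Other cell types and gene length moved with the ONP comparison. Of the 6 oligodendrocyte markers 5 fell (median log2FC -0.90), and among the 8 astrocyte markers S100b rose (0.62) and none fell. Of the 5 markers tested each for photoreceptors, neurons and mural cells, 2 fell in each list. The part of these cell types in the result was not tested. Short genes as a class were higher at 30 days. Among all protein-coding genes tested with a coding sequence under 400 bases, 27.6% rose and 1.52% fell (median log2FC 0.41, 725 genes), against 15.8% and 3.78% of the 2405 genes from 400 to under 800 bases (median 0.17) and 4.44% and 11.8% of the 10867 genes of 800 bases or more (median -0.10). The nuclear members are short proteins, 42 of 86 having a coding sequence under 400 bases. Their members of these classes rose in 21 of 38 (median 0.58), 12 of 29 (0.32) and 1 of 15 cases (0.07). The Spearman correlation of log2FC with coding length was -0.79 across the 82 nuclear members tested and -0.34 across all protein-coding genes tested. These points share libraries and are a description. With offsets for length and GC content in the same test, 3 nuclear members rose (Ndufb10 0.47 ± 0.11, adjusted p = 0.0185, with Atp5g1 and Uqcr11), 3 fell (Cox4i2, Uqcrc2 and Ndufs1), and 6 mitochondrially encoded members fell, when 5.14% of all 15478 genes tested rose and 7.93% fell. The nuclear median was then 0.13 and the mitochondrial median -0.79.

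**Figure D3:**
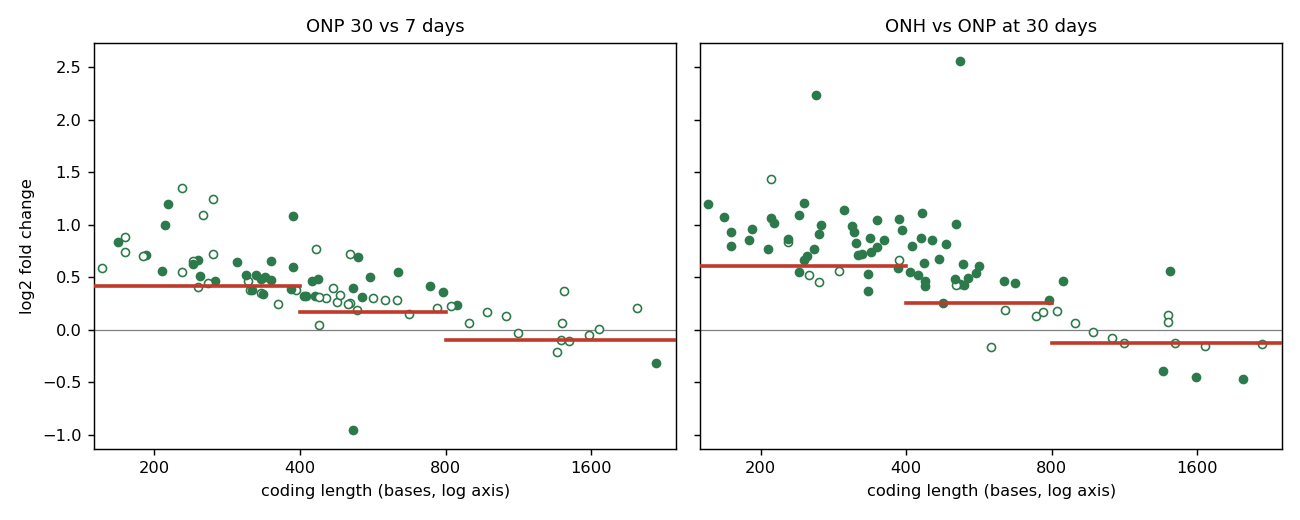
The log2FC of the nuclear members tested (y axis) against coding length in bases (x axis, log scale), for the ONP at 30 against 7 days and for the ONH against the ONP at 30 days. Filled points passed an adjusted p of 0.05, and red bars are the medians of all protein-coding genes tested that are under 400, from 400 to under 800, and 800 or more bases long. In both panels short members tend to lie higher than long ones, as the red bars do, with exceptions such as Cox4i2.

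In the ONH, no member passed the test between 30 and 7 days, and neither did any other gene. With edgeR's quasi-likelihood test 0 of 85 nuclear and 0 of 13 mitochondrially encoded members were called (0% of all 15668 genes higher and 0% lower). At an unadjusted p under 0.05, 41 nuclear members were higher and none lower, against 7.1% and 6.8% of all genes. DESeq2 called 17 nuclear members and 1 mitochondrially encoded member higher, when 1.55% of all 17964 genes it tested were higher and 0.93% lower. The nuclear median log2FC was 0.53, with 75 above 0 and 10 below, and the mitochondrial median was 0.14. The groups of 7 nuclear members did not overlap with 30 days higher (1.76% of all genes), namely Cox5b, Atp5e, Ndufv3, Atp5k, Atp5g1, Ndufb2 and Ndufs8. Without ONH 7 days library 5 alone, 24 nuclear members were called higher, when 0.763% of all 16118 genes tested were higher and 0.273% lower. Without the 3 libraries high in photoreceptor markers no member was called and the medians were 0.82 for the nuclear and 0.25 for the mitochondrially encoded members. That fit kept only libraries 1 and 3 of the ONH at 7 days.

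The medians of the ONH over time moved with the processing and with single libraries. With offsets for length and GC content they were 0.21 for the nuclear and 0.0090 for the mitochondrially encoded members. Leaving out single libraries gave nuclear medians of 0.42 to 0.85. The mitochondrial median was 0.55 without ONH 7 days library 1 and -0.0074 without ONH 7 days library 3. Short genes as a class lay higher at 30 days here too. The median log2FC of the 751 protein-coding genes tested under 400 coding bases was 0.45, that of the 2461 genes from 400 to under 800 bases 0.16 and that of the 10899 genes of 800 bases or more -0.10. The nuclear members of these classes had medians of 0.74 (41), 0.38 (29) and -0.04 (15). As for all genes, edgeR called no marker of another cell type in this comparison, while DESeq2 called 3 of the 6 mural cell markers lower (Acta2, Pdgfrb and Myh11). The median log2FC was -1.22 for the 6 mural cell markers, -1.91 for the 6 photoreceptor markers, -0.58 for the 5 neuronal markers tested and -0.04 for the 6 oligodendrocyte markers. The part of length and of these cell types in the result was not tested.

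Cox5b and Atp5e had the smallest p among the nuclear members of the ONH. Cox5b was at 41.5, 45.7, 83.9 and 44.2 CPM in the 7 day ONH libraries 1, 3, 5 and 6 and ran from 95.5 through a median of 122 to 235 at 30 days (log2FC 1.36 ± 0.29, adjusted p = 0.180). Atp5e was at 22.7, 13.2, 30.9 and 15.9 CPM at 7 days and ran from 38.8 through a median of 43.1 to 83.7 at 30 days (log2FC 1.27 ± 0.27, adjusted p = 0.180). In both, library 5 was the highest early library and lay below the lowest late one. Ndufv3, a flavoprotein-module subunit, was at 0.73 ± 0.16 (adjusted p = 0.182), and Usmg5 at 1.34 ± 0.38 (adjusted p = 0.189). Without ONH 7 days library 5 the adjusted p of Cox5b was 0.0428 and that of Ndufv3 0.0472, and Atp5e and Usmg5 passed as well. DESeq2 called Cox5b (adjusted p = 0.00279), Atp5e (0.00309), Ndufv3 (0.00643) and Usmg5 (0.0264). With all 4 groups in a single edgeR fit Cox5b (adjusted p = 0.0368), Atp5e (0.0323) and Ndufv3 (0.0230) passed. The lowest log2FC values by p were those of Uqcrc2, a large core subunit of complex III (-0.31 ± 0.15, adjusted p = 0.370), Atp5b (-0.34 ± 0.17, adjusted p = 0.392) and Ndufs1 (-0.31 ± 0.19, adjusted p = 0.465).

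Among the mitochondrially encoded members of the ONH, mt-Nd4l had the smallest p. Its 7 day values were 19.1, 8.08, 19.1 and 10.04 CPM and its 30 day values ran from 21.1 through a median of 25.3 to 48.1, with no overlap (log2FC 1.04 ± 0.30, adjusted p = 0.194). DESeq2 called it (adjusted p = 0.0391). mt-Nd4l is read from 1 transcript with mt-Nd4, whose own log2FC was within 1 SE of 0. mt-Nd6 (0.70 ± 0.25, adjusted p = 0.264), mt-Atp6 (0.81 ± 0.32, adjusted p = 0.293) and mt-Nd1 (0.59 ± 0.24, adjusted p = 0.296) came next. mt-Nd6 lies on the strand opposite to the others and the libraries did not keep strand, so its reads and those of the antisense transcript cannot be told apart. For mt-Nd4, mt-Nd5, mt-Cytb, mt-Co1, mt-Co2, mt-Co3 and mt-Atp8 the log2FC was within 1 SE of 0.

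Between regions at 30 days, subunits of both genomes were higher in the ONH than in the ONP. Among 85 nuclear members tested, 61 were higher in the ONH and 3 lower (21.8% and 20% of all 15133 genes tested), with a median log2FC of 0.63 against -0.01 over all genes. With offsets for length and GC content the nuclear count was 21 higher and 6 lower, with a median of 0.13, beside 19.8% of all genes higher and 16.9% lower. Of the 13 mitochondrially encoded members 8 were higher and none lower, with a median of 0.86. Leaving out single libraries gave 56 to 65 nuclear members higher and 3 lower, and 8 or 9 mitochondrially encoded members higher. In those fits 19.2% to 22.2% of all genes were higher and 17.4% to 20.5% lower. Of the 3 libraries high in photoreceptor markers, ONH 30 days replicate 4 is the 1 in this comparison. Without it 58 nuclear members were higher and 3 lower, beside 20.7% and 18.5% of all genes. Of the mitochondrially encoded members 8 were higher and none lower, and the medians were 0.65 and 0.85. With the replicate number as a block, 61 nuclear members were higher and 3 lower and 9 mitochondrially encoded members were higher (22.1% and 22.3% of all genes).

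The nuclear subunits higher in the ONH came from every complex. In complex I 30 of 38 were higher (median log2FC 0.65), in complex II 2 of 4 with 1 lower (0.34), in complex III 5 of 9 with 1 lower (0.53), in complex IV 12 of 16 (0.77), and in ATP synthase 12 of 18 with 1 lower (0.53). Cox4i2 had the largest log2FC of the nuclear members tested. It ran from 8.54 through a median of 10.4 to 17.1 CPM in the ONH and from 1.43 through a median of 1.89 to 2.38 in the ONP (log2FC 2.56 ± 0.19, adjusted p = 2.13e-07), and the lowest ONH library was more than 3 times the highest ONP one. Its general form Cox4i1 was at a lowest of 568, a median of 701 and a highest of 1383 CPM in the ONH and ran from 325 through a median of 395 to 476 in the ONP (log2FC 1.01 ± 0.16, adjusted p = 0.000167), also without overlap. Ndufa11, whose promoter is printed above, ran from 115 through a median of 135 to 196 CPM in the ONH and from 65.7 through a median of 75.9 to 88.5 in the ONP (log2FC 0.88 ± 0.11, adjusted p = 2.08e-05). Every ONH library exceeded every ONP library. Sdhb ran from 297 through a median of 308 to 348 CPM in the ONH and from 228 through a median of 232 to 236 in the ONP, again with a gap (log2FC 0.46 ± 0.07, adjusted p = 9.38e-05). Atp5g1, a copy of the c-ring subunit of ATP synthase, was at 0.55 ± 0.09 (adjusted p = 0.000183).

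Isoforms that are minor in most tissues were low here, and Cox7a1 passed in this comparison as Cox4i2 did. Ndufa4l2, a paralog of Ndufa4 known for induction by low oxygen and abundance in pericytes, ran from 0.486 through a median of 1.80 to 2.72 CPM in the ONH and from 0 through a median of 0.257 to 1.22 in the ONP (log2FC 2.23 ± 0.62). It passed the filter on low counts through the ONH alone, so its test depends on the group where it is high. Its adjusted p of 0.00902 is therefore not read as a difference, although the gene is among the nuclear members counted as higher. Cox7a1, the heart and muscle form of Cox7a, was at 1.09 ± 0.32 (adjusted p = 0.0117). With the offsets for length and GC content Cox7a1 did not pass (0.40, adjusted p = 0.228). The muscle forms Cox8b (1.43 ± 0.60, adjusted p = 0.0681) and Cox6a2 did not pass, and Cox6a2 reached 7.13 CPM in ONH 30 days replicate 7 and 5.04 in ONP 30 days replicate 7 but no more than 1.83 in any other library. Skeletal muscle markers summed to 78.0 CPM in ONH 7 days library 5, 24.9 in ONP 30 days replicate 7 and at most 13.8 elsewhere, with Ckm at 0 in 13 libraries and Tnnc2 in 12, and none of the 3 tested passed. Mural cell markers summed to 205 to 739 CPM in the ONH and 101 to 228 in the ONP at 30 days. Of the 5 tested, 3 were higher in the ONH and 1 lower. Their part in the values of Cox4i2 and Ndufa4l2 was not tested.

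The 3 nuclear members lower in the ONH at 30 days were large catalytic or core subunits. Atp5b ran from 616 through a median of 811 to 882 CPM in the ONH and from 983 through a median of 1072 to 1142 in the ONP (log2FC -0.45 ± 0.10, adjusted p = 0.00245). Sdha, which oxidises succinate, ran from 439.6 through a median of 476 to 596 CPM in the ONH and from 565 through a median of 708 to 809 in the ONP (log2FC -0.47 ± 0.11, adjusted p = 0.00283). Uqcrc2 ran from 80.7 through a median of 104 to 122 CPM and from 129 through a median of 139 to 148 respectively (log2FC -0.40 ± 0.10, adjusted p = 0.00422). For Atp5b and Uqcrc2 every ONH library lay below every ONP library, and for Sdha the ranges overlapped at their ends. In complex II, then, Sdhb was higher and Sdha lower in the ONH. With the offsets for length and GC content neither passed (Sdhb 0.13, adjusted p = 0.230, and Sdha -0.26, adjusted p = 0.0776).

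**Figure D4:**
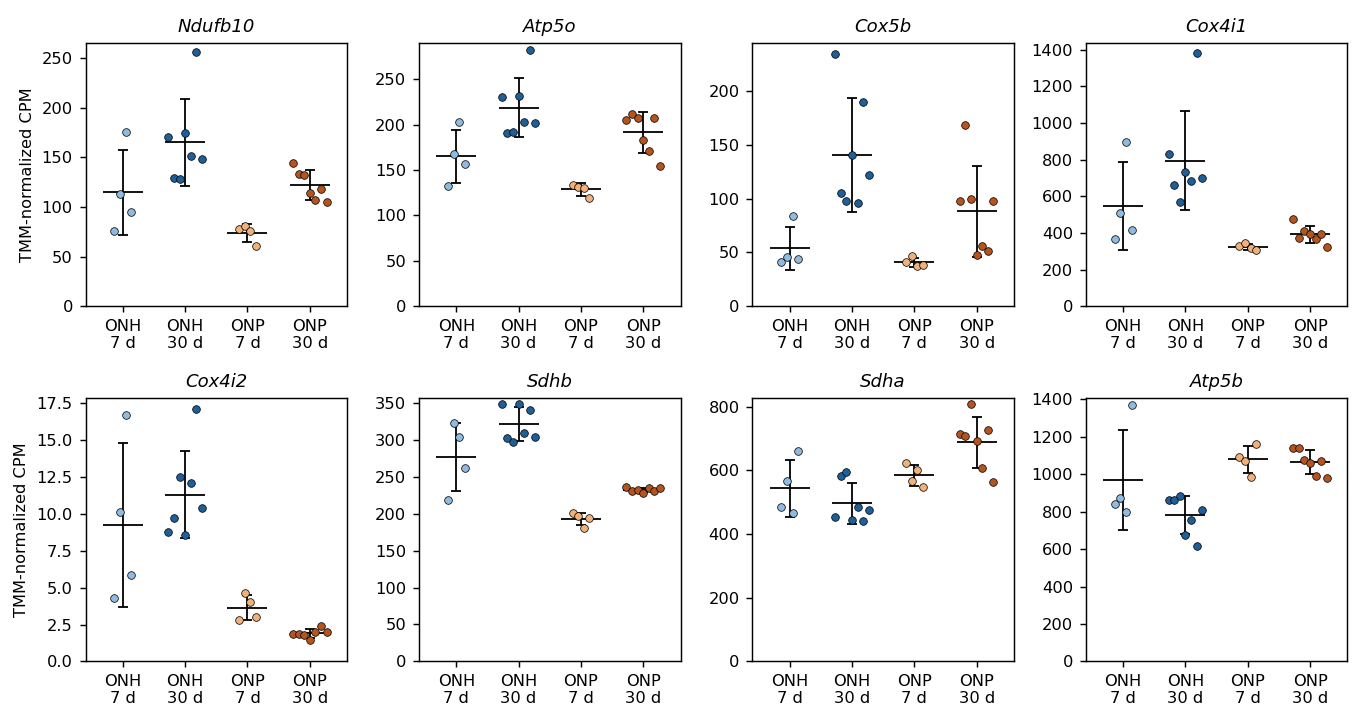
Normalized level (CPM, linear axis from 0) of 8 nuclear members in every library, by region and day. Points are libraries, long bars the mean and error bars the SD (n = 4 at 7 days, n = 7 at 30 days). Ndufb10 and Atp5o are higher at 30 than at 7 days in all ONP libraries, and Cox4i2 and Atp5b separate the regions at 30 days in opposite directions.

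Mitochondrially encoded subunits of complexes I and IV were higher in the ONH than in the ONP at 30 days. mt-Nd1 ran from 346 through a median of 536 to 843 CPM in the ONH and from 83.1 through a median of 196 to 282 in the ONP (log2FC 1.43 ± 0.23, adjusted p = 0.000213). mt-Nd4l ran from 21.1 through a median of 25.3 to 48.1 CPM and from 5.80 through a median of 10.3 to 20.5 respectively (log2FC 1.39 ± 0.26, adjusted p = 0.000534). In both genes every ONH library was above every ONP library. mt-Co1 ran from 646 through a median of 1134 to 1466 CPM in the ONH and from 241 through a median of 522 to 837 in the ONP, with some overlap (log2FC 1.12 ± 0.25, adjusted p = 0.00189). mt-Co2 (1.22 ± 0.27, adjusted p = 0.00211) and mt-Co3 (0.95 ± 0.25, adjusted p = 0.00597) completed complex IV. In complex I mt-Nd2 (0.86 ± 0.25, adjusted p = 0.0111), mt-Nd3 (2.21 ± 0.66, adjusted p = 0.0136) and mt-Nd6 (0.79 ± 0.24, adjusted p = 0.0169) passed as well. mt-Nd3 was the lowest of them, at a lowest of 0, a median of 1.28 and a highest of 3.69 CPM in the ONP and a lowest of 1.72, a median of 6.45 and a highest of 15.5 in the ONH. Neither subunit of ATP synthase passed. mt-Atp6 was at 0.60 ± 0.37 (adjusted p = 0.214), and with the replicate number as a block it was at 0.83 (adjusted p = 0.0231), the 1 change of a mitochondrial call under the block. For mt-Nd4, mt-Nd5, mt-Cytb and mt-Atp8 the log2FC was within 1 SE of 0.

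**Figure D5:**
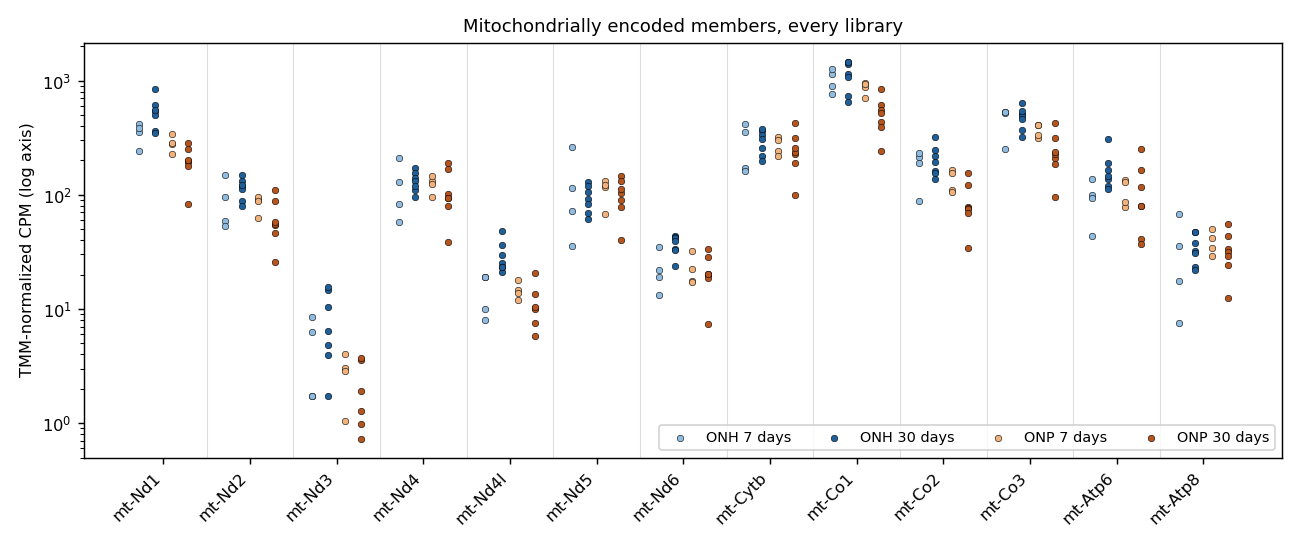
Normalized level (CPM, log axis) of the 13 mitochondrially encoded members (x axis) in every library, coloured by region and day. Each point is a library, and mt-Nd3 in ONP 30 days replicate 4 is not drawn because it had no count. For mt-Nd1 and mt-Nd4l all ONH libraries at 30 days lie above all ONP libraries at 30 days, while the groups of mt-Nd4, mt-Nd5, mt-Cytb and mt-Atp8 overlap.

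The 2 mitochondrial ribosomal RNAs, which are no members, differed between the regions at 30 days. mt-Rnr2 (log2FC 2.18 ± 0.37, adjusted p = 0.000249) and mt-Rnr1 (2.02 ± 0.39, adjusted p = 0.000762) were higher in the ONH at 30 days, and their summed share averaged 0.105% of counts in the ONH and 0.0239% in the ONP with no overlap. At 7 days neither passed (mt-Rnr2 0.51, adjusted p = 0.342, and mt-Rnr1 0.19, adjusted p = 0.804), and the shares, 0.0457% and 0.0303%, overlapped. In the ONH from 7 to 30 days mt-Rnr1 was at 1.63 ± 0.49 (adjusted p = 0.202) and mt-Rnr2 at 1.22 ± 0.44 (adjusted p = 0.262), and DESeq2 called mt-Rnr1. Other markers also separated the regions at 30 days. All 6 photoreceptor markers and 3 of 5 neuronal markers tested were higher in the ONH and 5 of 6 oligodendrocyte markers were lower (median -0.99). Of the photoreceptor markers, Rcvrn and Pdc had means of 0.0886 and 0.196 CPM in the ONP. They passed the filter on low counts through the ONH alone, so their calls are not read as differences. Of the astrocyte markers S100b was higher (0.76) and Aqp4 (-1.43), Slc1a2 (-0.79) and Gfap (-0.50) were lower. Coding length moved with this comparison too. Under 400 coding bases 56.2% of all protein-coding genes tested were higher in the ONH (median log2FC 0.61) and 35 of 41 nuclear members were (0.86). From 400 to under 800 bases the values were 38.4% of all genes (0.26) and 24 of 29 members (0.49), and from 800 bases they were 16.3% higher and 24.5% lower of all genes (-0.13) and 2 higher and 3 lower of 15 members (-0.08). With offsets for length and GC content, which left the 21 nuclear calls given above, 6 mitochondrially encoded members were higher (median 0.49). Under these offsets Cox4i2 (2.01 ± 0.19, adjusted p = 1.93e-06), Cox4i1 (0.44 ± 0.12, adjusted p = 0.0118), mt-Nd1 (1.03 ± 0.19, adjusted p = 0.000587) and mt-Co1 (0.98 ± 0.23, adjusted p = 0.00352) passed, and Sdhb (0.13, adjusted p = 0.230) and Sdha (-0.26, adjusted p = 0.0776) did not. Ndufa11 passed at a lower value (0.22, adjusted p = 0.0462), as did mt-Nd4l (0.72, adjusted p = 0.0245) and mt-Co2 (0.70, adjusted p = 0.0155). Of the 8 mitochondrially encoded members called, mt-Co3 (0.49, adjusted p = 0.0732) and mt-Nd6 (0.26, adjusted p = 0.351) lost their calls.

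At 7 days the regions were compared with 4 libraries each. Among 83 nuclear members tested 4 were higher in the ONH and none lower (6.34% and 6.81% of all 14752 genes tested), which is no larger a share than that of all genes. Their median log2FC was 0.54, against 0.07 over all genes, and 36 were higher at an unadjusted p under 0.05 (15.7% of all genes). The count was 16 with DESeq2 (9.75% of all genes higher) or with library size scaling (9.44%), and 19 with all 4 groups in a single fit (11.9%). The difference in counts between the 2 days was not tested. Ndufb4, an accessory subunit of complex I, was at 37.4, 27.6, 54.5 and 29.8 CPM in the ONH and 16.9, 19.99, 20.9 and 17.3 in the ONP, without overlap (log2FC 1.01 ± 0.24, adjusted p = 0.0214). Ndufa11 (0.70 ± 0.20, adjusted p = 0.0394), the complex I subunit Ndufb6 (0.76 ± 0.22, adjusted p = 0.0462) and Sdhb (0.54 ± 0.16, adjusted p = 0.0464) also passed. Cox4i1 (0.77 ± 0.25, adjusted p = 0.0714), Cox4i2 (1.36 ± 0.46, adjusted p = 0.0783) and Ndufa4l2 (2.22 ± 0.72, adjusted p = 0.0700) did not. DESeq2 called Cox4i1 and Cox4i2, and it also called Ndufa4l2. Ndufa4l2 had 3 to 10 counts in the ONP libraries against 26 to 57 in the ONH. In edgeR it passed the filter on low counts through the ONH alone. DESeq2 did not use that filter, but the ONP counts lie near the floor, so its call of Ndufa4l2 is not read as a difference. The call of Ndufb4 was lost without any 1 of the 4 ONP libraries (adjusted p up to 0.0751). That of Ndufa11 was lost without any 1 of 5 of the 8 libraries (adjusted p up to 0.126), and those of Ndufb6 (up to 0.122) and Sdhb (up to 0.142) without any 1 of 7. With a block of the 3 column numbers that both regions carry, and so 3 libraries a region, none of the 4 passed. Ndufb4 was then at 1.12 (adjusted p = 0.0650), Ndufa11 at 0.78 (adjusted p = 0.123), Ndufb6 at 0.74 (adjusted p = 0.189) and Sdhb at 0.45 (adjusted p = 0.291). The offsets for length and GC content ended the same 4 calls (adjusted p = 0.108 to 0.479). The count was 0 without ONP 7 days library 1, 5 or 6, when 3.8%, 3.27% or 3.1% of all genes were higher. It was 1 without ONP 7 days library 2 (3.17%) or ONH 7 days library 3 (4.61%). It was 2 without ONH 7 days library 5 (5.66%) and 8 without ONH 7 days library 1 (5.48%). Of the 3 libraries high in photoreceptor markers, ONH 7 days libraries 5 and 6 are in this comparison, and leaving them out keeps only ONH libraries 1 and 3. Without them 1 nuclear member was called, beside 6.74% of all genes higher. The medians were 0.18 for the nuclear and 0.13 for the mitochondrially encoded members.

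Gene length and other cell types also separated the regions at 7 days. Under 400 coding bases 14.6% of the 705 protein-coding genes tested were higher in the ONH and 1.42% lower (median log2FC 0.56), and 2 of 39 nuclear members were higher (0.64). From 400 to under 800 bases 11.5% of 2356 genes were higher and 4.5% lower (0.34), with 1 of 29 members higher (0.52). From 800 bases 5.04% of 10535 genes were higher and 8.16% lower (-0.05), with 1 of 15 members higher (0.05). With the offsets for length and GC content 1 nuclear member was higher, the complex II membrane anchor Sdhc (0.78, adjusted p = 0.0461), the nuclear median was 0.085, and 5.71% of all 14740 genes tested were higher and 6.4% lower. All 6 oligodendrocyte markers were lower in the ONH (median -1.85), and 5 of 6 photoreceptor, 2 of 6 mural cell and 2 of 5 neuronal markers tested were higher. The mural cell marker Myh11, at a mean of 0.241 CPM in the ONP, passed the filter on low counts through the ONH alone. Its value is not read as a difference. Mural cell markers summed to 469 to 875 CPM in the ONH and 117 to 192 in the ONP, and neuronal markers to 50.6 to 119.9 CPM in the ONH and 17.2 to 39.6 in the ONP. Skeletal muscle markers were high in library 5 of the ONH alone. The part of length and of these cell types in the result was not tested.

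No mitochondrially encoded member separated the regions at 7 days. edgeR called 0 of 13, none had an unadjusted p under 0.05 and DESeq2 called 0, with 9 above 0 and 4 below and a median log2FC of 0.10. mt-Nd1 was at 413, 239, 354 and 387 CPM in the ONH and 276, 337, 286 and 227 in the ONP (log2FC 0.32 ± 0.20, adjusted p = 0.310). mt-Co2 was at 215, 88.8, 233 and 191 CPM in the ONH and 110.2, 164, 155 and 106 in the ONP (log2FC 0.46 ± 0.28, adjusted p = 0.314). In both genes ONH library 3 lay within or below the ONP range.

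Whether the change from 7 to 30 days differed between the regions was tested as an interaction. No member passed with edgeR, 0 of 85 nuclear and 0 of 13 mitochondrially encoded, when 0.149% of all 16748 genes were more positive in the ONP and 0.394% more negative. At an unadjusted p under 0.05, 1 nuclear member was higher and 1 lower and 3 mitochondrially encoded members were lower, against 5.54% and 7.02% of all genes, and DESeq2 called 1 mitochondrially encoded member lower. The median difference, ONP minus ONH, was -0.13 for the nuclear members and -0.79 for the mitochondrially encoded ones, of which 12 were below 0. The nuclear median ran from -0.38 without ONH 7 days library 5 to -0.00015 without ONH 30 days replicate 6, and it was 0.03 with library size scaling. mt-Nd4l was at -1.46 ± 0.43 (adjusted p = 0.123), mt-Nd1 at -1.13 ± 0.36 (adjusted p = 0.157) and mt-Co1 at -0.90 ± 0.37 (adjusted p = 0.307). Cox4i2 was at -1.22 ± 0.42 (adjusted p = 0.201) and, without ONH 7 days library 5, passed with an adjusted p of 0.0280. Without the 3 libraries high in photoreceptor markers, which leaves libraries 1 and 3 of the ONH at 7 days, no member passed. The medians were then -0.41 and -0.85. The 4 pairwise comparisons share their libraries with each other and with this test, so they are not separate evidence.

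Genes that build and run the respiratory chain were described by their own lists. These lists were not split by coding length or read under the offsets for length and GC content. The part of length in their counts was not tested. Of 51 assembly factors 49 were in the table. In the ONP from 7 to 30 days 10 rose and 1 fell (median log2FC 0.25), beside 7.82% and 9.21% of all genes tested. Among those that rose were Coa5 (0.83 ± 0.09, adjusted p = 0.000435) and Cox14 (0.67 ± 0.10, adjusted p = 0.00197), both needed for complex IV, and Ndufaf8 (1.09 ± 0.20, adjusted p = 0.00478), a complex I factor. In the ONH over the same time edgeR called none, with 12 higher and 1 lower at an unadjusted p under 0.05 (7.1% and 6.8% of all genes) and 5 higher by DESeq2 (1.55%). Between regions at 30 days 22 were higher in the ONH and 8 lower (0.37), beside 21.8% and 20% of all genes, with the complex IV factor Surf1 (0.74 ± 0.11, adjusted p = 7.68e-05) and the complex III factor Uqcc3 (0.99 ± 0.17, adjusted p = 0.000253) higher and Coa5 lower (-0.57 ± 0.11, adjusted p = 0.00099). At 7 days 4 were higher in the ONH and none lower (0.28), a share near the 6.34% of all genes higher there.

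Factors that copy, transcribe and process mitochondrial DNA and RNA formed a further list. Of 26 such genes 2 rose and 2 fell in the ONP from 7 to 30 days (median log2FC -0.02), shares close to the 7.82% and 9.21% of all genes. The transcription factor Tfb2m (0.73 ± 0.17, adjusted p = 0.0144) rose and the mitochondrial RNA polymerase Polrmt fell (-0.65, adjusted p = 0.0495). Between regions at 30 days 2 were higher in the ONH and 4 lower (-0.07), beside 21.8% and 20% of all genes, and Polrmt was lower in the ONH (-0.72, adjusted p = 0.00173), as was the RNA helicase Supv3l1 (-0.79, adjusted p = 0.00124). At 7 days none was higher and 1 lower, beside 6.34% and 6.81% of all genes, and that 1, Lrpprc, which stabilises mitochondrial mRNA, was at -1.14 (adjusted p = 0.0404). Of 12 nuclear regulators of the chain 2 were higher in the ONH at 30 days and 2 lower, and 1 rose in the ONP over time and none fell, shares near or below those of all genes. The coactivator Ppargc1a was lower in the ONH at 30 days (-1.92 ± 0.27, adjusted p = 5.1e-05) and rose in the ONP over time (0.89 ± 0.27, adjusted p = 0.0381). Of 12 genes for other mitochondrial compartments, none rose and 2 fell in the ONP from 7 to 30 days, beside 7.82% and 9.21% of all genes. Those that fell were Immt, which shapes the inner membrane (-0.38, adjusted p = 0.00533), and the matrix chaperonin Hspd1 (-0.32, adjusted p = 0.0418). Between regions at 30 days 4 were higher in the ONH and 2 lower, beside 21.8% and 20% of all genes. The import receptor Tomm22 was higher (0.79, adjusted p = 9.39e-05) and the matrix enzyme Cs lower (-0.39). Cycs, the electron carrier between complexes III and IV, was higher in the ONH at 30 days (0.26 ± 0.10, adjusted p = 0.0396).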

How the data were processed

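Ribosome-bound RNA was primed with oligo-dT and amplified from low input without strand information, and all libraries were prepared and sequenced together. The authors mapped reads of 150 bases with STAR 2.6.1d and estimated transcript abundance with Salmon 0.14.2 within bcbio-nextgen 1.2.8 (mm10, Ensembl release 94, per the labels), and deposited expected counts per gene as whole numbers. A table of variance-stabilised log2 values that the authors also deposited was not used, nor were samples at 0 days.

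Counts were tested with edgeR 4.0.16 (quasi-likelihood test, filterByExpr, TMM factors, R 4.3.3) in pairwise fits of 2 groups, and p-values were adjusted by Benjamini-Hochberg across every gene tested, with a threshold of 0.05. The interaction used all 4 groups in a single fit. CPM values use TMM factors over all 22 libraries. A prior count of 2 was used for log2 CPM values only, and the fold changes of the edgeR fits kept the tool's default. DESeq2 1.42.0, limma 3.58.1 (voom), other scalings and filters, offsets from a spline on transcript length and GC content, a replicate block and leaving out each library were alternatives. Lengths and coding bases came from GENCODE M21 (GRCm38). Leaving out the 3 ONH libraries high in photoreceptor markers and a block of the column numbers at 7 days were alternatives chosen after seeing the data. Each fit was tested on simulated data, and the outcome is not reported here. Values after ± are SDs between libraries or SEs from the fits, while the floor of 3 counts covers counting error only.

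Members and gene lists were chosen with earlier results of these data known. Genes named are the 13 mitochondrial subunits, a set of core subunits and restricted paralogs, and per comparison the 5 nuclear members of smallest adjusted p in each direction, or the 3 of smallest p where none passed. Genes named elsewhere, as examples or for their level, were chosen after their values were seen.

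Per the study's methods ONH and ONP tissue came from the same mice, and at 30 days the shared replicate number was taken to mark them. Deviations of the 7 pairs from their group means correlated at 0.0767 to 0.471, above 0.1 in 5, and 3 of the 7 ONH libraries correlated best with their own number.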

Additional observations from a re-analysis of the deposited data

Results flagged for a closer look

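Values of 30 quantities were examined in each of the 4 groups, 120 sets in all, for a single library far from the rest of its group (by Dixon's limit on its gap to the nearest library as a share of the group's range). Chance marks about 1 in 20 such sets, and 10 were marked. ONH 30 days replicate 6 was the highest of its group for Cox4i1 (1383 CPM, next 832), Ndufa11 (196, next 143) and Ndufb10 (256, next 175), and it also had the highest median level of genes under 400 coding bases (1.02 log2 units above their mean over all libraries). mt-Atp6 was at 307 CPM in ONH 30 days replicate 1 (next 188), and mt-Co3 at 249 CPM in ONH 7 days library 3 (next 519). In the ONP, Cox5b was at 168 CPM in 30 days replicate 2 (next 99.3), Ndufa4l2 at 1.22 CPM in 30 days replicate 5 (next 0.320) and Atp5e at 19.2 CPM in 7 days library 2 (next 13.3). In the ONH at 7 days, Cox5b was at 83.9 CPM in library 5 (next 45.7) and Atp5b at 1370.4 CPM in library 6 (next 875), and both libraries were among those high in photoreceptor markers. The part of those markers in these values was not tested. No member had changes over time that were without overlap in both regions and opposite in direction.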

How the results depend on the processing

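The count of nuclear members higher in the ONP at 30 days (34) was 52 with library size scaling, 3 with length and GC offsets and 8 with all 4 groups in a single fit, and the count lower (2) was 1 with library size scaling and 0 with a filter of at least 1 count in total or all groups. The count of mitochondrially encoded members lower there (1) was 6 with the offsets and 0 with voom, RLE factors, library size, TMM without the members, a minimum of 1 or of 10 counts, or all groups. Between regions at 30 days the offsets gave 21 nuclear members higher (61) and 6 lower (3). At 7 days the 4 nuclear members higher became 16 with DESeq2 or library size, 19 with all groups, and 1 with a minimum of 1 count, with the offsets or without the 3 libraries high in photoreceptor markers. In the ONH over time DESeq2 called 17 nuclear members and 1 mitochondrially encoded member higher (1.55% of all genes). All groups gave 13 nuclear ones (1.2%). For the interaction DESeq2 called 1 mitochondrially encoded member lower (1.3% of all genes). Nuclear medians under the offsets were 0.21 in the ONH over time, 0.13 in the ONP over time and between regions at 30 days and 0.085 at 7 days, where it was 0.18 without the 3 libraries. The cause of these changes was not tested.

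Leaving out single libraries gave 0 to 24 nuclear members higher in the ONH over time, 10 to 43 higher, 0 to 2 lower and 0 to 2 mitochondrially encoded members lower in the ONP, 0 to 8 higher between regions at 7 days (nuclear median 0.23 to 0.64), and 0 to 1 lower for the interaction. Without Atp5b and mt-Co1, the most abundant members, the nuclear share was 0.710% in the ONP at 7 days, the mitochondrial share 0.211% in the ONH at 30 days, 0.185% in the ONH at 7 days and 0.148% in the ONP at 7 days, and the ratio 0.177 in the ONH at 30 days and 0.208 in the ONP at 7 days. Changes of sign were seen in genes that were not called: under the offsets Ndufc2 (-0.13, ONP over time), Cox6b2 (-0.16), Ndufs1 (0.054) and Uqcrfs1 (-0.065, regions at 30 days), and Cox5b (-0.096), mt-Co3 (-0.080) and mt-Nd1 (-0.047, regions at 7 days), with library size Uqcrc1 (0.0097, ONP over time), and without the 3 libraries Atp5a1 (0.047, ONH over time, and -0.022, interaction) and mt-Nd3 (-0.67, regions at 7 days). Library size scaling moved the median of all genes to 0.11 in the ONP over time, 0.18 between regions at 7 days and 0.16 for the interaction.

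With the replicate block at 30 days, 61 nuclear members were higher and 3 lower, beside 22.1% and 22.3% of all genes. Of the mitochondrially encoded members 9 were higher, and the medians were 0.64 and 0.96. Of the genes named, Cox5b (0.73, adjusted p = 0.0422) and mt-Atp6 passed under the block, and the block changed no other call among them. At 7 days a block of the 3 column numbers that both regions carry (1, 5 and 6), with 3 libraries a region, called no member, 2.71% of all genes higher and 3.18% lower, with medians of 0.65 and 0.24. Same-numbered libraries correlated at 0.0117 to 0.146, 2 of the 3 ONH libraries best with their own number, and fewer libraries and the block cannot be told apart. No paired analysis was possible over time because the 2 days used different mice, and the interaction was not fitted with a block.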

Other observations

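Proteins of the mitochondrial ribosome, which translate the mitochondrially encoded subunits and are themselves encoded in the nucleus, were described as a further list of 78 genes, chosen after its values were seen. In the ONP from 7 to 30 days 14 rose and none fell (median log2FC 0.21), beside 7.82% and 9.21% of all genes tested. In the ONH over the same time edgeR called none, with 17 higher and 1 lower at an unadjusted p under 0.05 (median 0.26), beside 7.1% and 6.8% of all genes. Between regions 56 were higher in the ONH and 2 lower at 30 days (median 0.50), beside 21.8% and 20% of all genes. At 7 days 10 were higher and none lower (0.47), beside 6.34% and 6.81%. This list too was not split by coding length or read under the offsets, and the part of length in it was not tested.

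The median level of protein-coding genes under 400 coding bases, relative to the mean of each gene over all libraries, differed between groups without overlap in 3 of the 4 pairs of groups compared. In log2 units it was 0.171 to 1.02 in the ONH at 30 days and -0.279 to 0.0448 in the ONP at 30 days. At 7 days it was -0.212, -0.0691, 0.471 and -0.314 in ONH libraries 1, 3, 5 and 6 and -0.560, -0.399, -0.512 and -0.655 in ONP libraries 1, 2, 5 and 6.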
